A study of Mus musculus with 15 samples.

Results

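The genes described here are the collagens, 42 genes measured by 82 probe sets whose symbol on the array platform begins with Col, a number, a and a number. They are 42 of the 18194 genes with a probe set of their own, and 27 of the 42 had more than 1 probe set. Their expression was read on arrays of endothelial cells purified acutely, by anti-PECAM beads, out of the retina of adult mice. The groups were 3 pools each of mice without the receptor Frizzled4 (Fz4-/-, here Fz4 KO), without its coreceptor Lrp5 (Lrp5-/-, here Lrp5 KO) and without their ligand Norrin (Norrin-, here Norrin KO), and 6 pools from wild-type mice. Every pool held cells of 5 to 10 mice of both sexes, per the labels, on the C57Bl6/129 mixed background. No promoter or Cre is named, so the lesions are described only as loss of the gene, and cells other than endothelium may also carry them.

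Collagens are triple helices of 3 chains, built in the endoplasmic reticulum and secreted into the matrix. Type IV collagen forms the network of the basement membrane on which vascular endothelium sits, types XV and XVIII carry glycosaminoglycan chains and lie at the basement membrane zone, type VI forms beaded filaments beside it, and types I, III and V form banded fibrils. Norrin is a secreted protein that binds Frizzled4 and Lrp5 on retinal endothelium and signals through beta-catenin and TCF/LEF factors. Loss of any of the 3 leaves the mouse retina with an incomplete and leaky vasculature.

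Fzd4, the gene of Frizzled4, read 3.98 to 4.56 in Fz4 KO pools and at least 11.495 on every other array, on the log2 scale of the deposited signals. Lrp5 read 4.40 to 5.25 in Lrp5 KO pools and at least 7.22 elsewhere, and Ndp, the gene of Norrin, was at 3.88 to 4.96 everywhere and so checks no label. The 10 endothelial markers averaged 11.77 to 12.21 in mutant pools and 11.94 to 12.22 in wild-type pools, far above the array medians of 5.885 to 6.038. Markers of pericytes and smooth muscle were as plainly present, at 11.41 to 11.88 in mutant pools and 11.31 to 11.66 in wild-type pools, so transcripts of these cells were in the purified fraction. Lrp5 KO 1, wild type 4 and Lrp5 KO 3 stood apart from the other arrays, and the values that rest on them are given with and without them. They had the highest scores on the second principal component, at 77.4, 34 and 29.2, where the next array was at 15.7. At the other end wild type 5 was at -29.5 and wild type 3 at -26.6. By size alone Lrp5 KO 3 was thus no farther out than wild type 5. Array weights, which are low for arrays far from their group, marked only some of the arrays that stood apart. Wild type 4 (0.307) and Lrp5 KO 1 (0.341) had low weights, while Lrp5 KO 3 had the highest (3.19). Norrin KO 1 had the lowest (0.284).

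Of the collagens that changed in the mean of the mutants, all but 1 were higher. There 19 of the 42 genes were higher than in wild type and 1, Col1a1, was lower, by limma with Benjamini-Hochberg adjustment over all genes. That is 45.2% and 2.38% of the collagens, where 14.0% of all 18194 genes were higher and 9.91% lower. The median log2 fold change was 0.424 over the collagens and -0.0111 over all genes. All 9 mutant pools read above all 6 wild-type pools for 13 of the 42 genes (31%), which held for 4.76% of all genes. Counted by probe set, 31 of 82 rose (37.8%), against 12.6% of all probe sets with 1 symbol.

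In Fz4 KO pools 13 collagens were higher and 1 lower, where 10.7% of all genes were higher and 6.08% lower. In Lrp5 KO pools 11 were higher and 1 lower, where the shares of all genes were 5.63% and 7.27%. Without the 3 arrays that stood apart 7 were higher in Lrp5 KO: Col4a1, Col4a2, Col5a1 and Col6a2 no longer passed, with limma adjusted p-values of 0.0557 to 0.206, and that fit left 1 Lrp5 KO pool, taken to vary like the other groups. Their log2 fold changes were 0.52, 0.48, 0.66 and 1.31 without these arrays, and 0.49, 0.44, 0.84 and 1.44 with all arrays. The count for the mean of the mutants was then 17, without Col4a6 (0.91, adjusted p = 0.0673) and Col16a1 (0.46, adjusted p = 0.0506). In Norrin KO pools 19 were higher and 1 lower, where the shares were 16.7% and 9.13%. The 3 comparisons share the same 6 wild-type pools. On the brightest probe set of each gene, 11 genes passed as higher in every mutant. They were Col4a1, Col4a2, Col4a3, Col4a4, Col5a1, Col5a3, Col6a2, Col6a3, Col13a1, Col15a1 and Col18a1. In cells purified as a bulk, fewer cells of a type and less RNA per cell cannot be told apart, and the same holds for more.

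**Figure D1:**
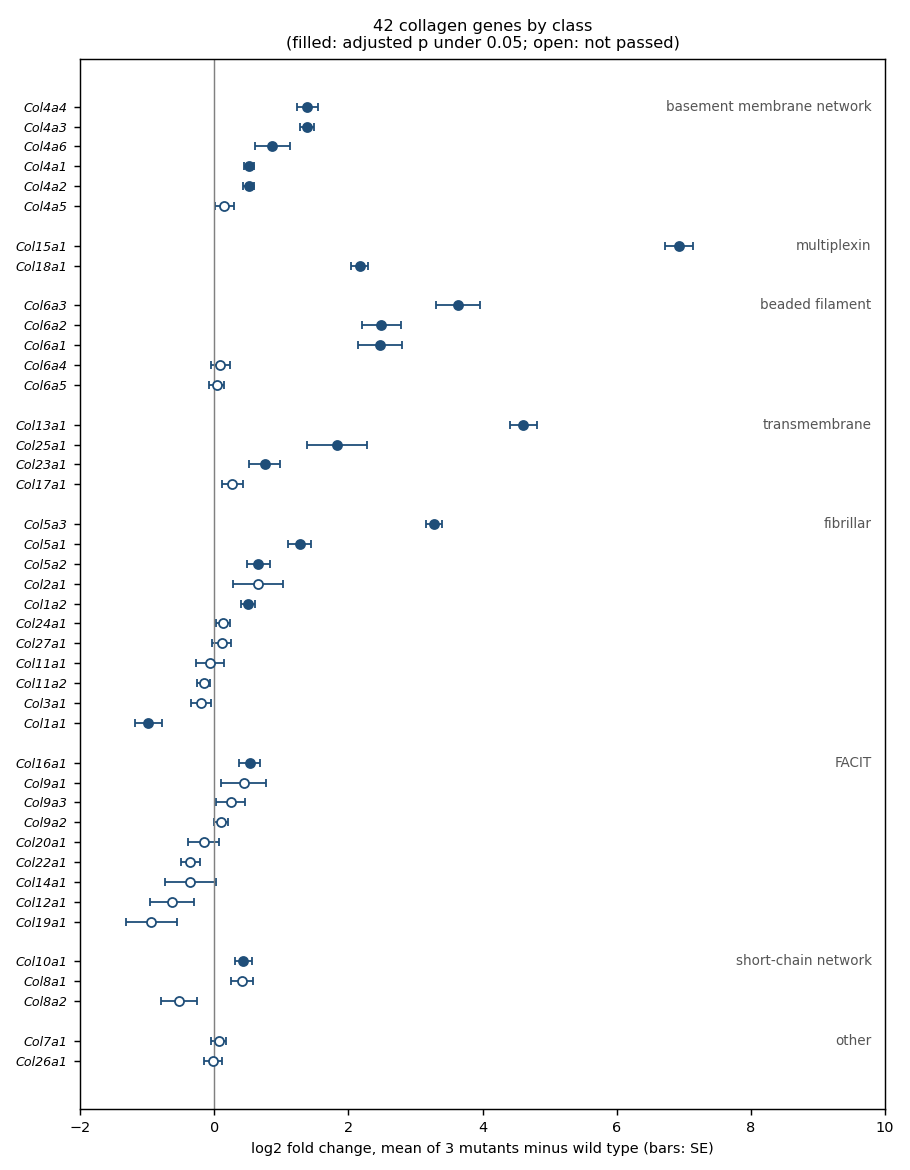
Log2 fold change of each of the 42 collagen genes, mean of the 3 mutants minus wild type, on the x axis, with genes on the y axis grouped by structural class. Bars are standard errors from limma, filled points passed at an adjusted p of 0.05 and open points did not. Col15a1 lies farthest to the right at 6.93, and Col1a1 is the filled point to the left of 0.

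Markers of macrophages and microglia were counted beside the collagens. By mutant, 6 of the 10 were higher in Fz4 KO, 3 in Lrp5 KO and 3 in Norrin KO, where the collagen counts were 13, 11 and 19. As shares these were 60%, 30% and 30% of the markers and 31%, 26.2% and 45.2% of the collagens. Of all genes 10.7%, 5.63% and 16.7% were higher in the same mutants, so the counts alone do not compare the 2 lists. In the mean of the mutants 5 of the 10 rose and none fell. The list averaged 8.494 to 9.606 in mutant pools and 7.262 to 8.669 in wild-type pools. Mrc1, the mannose receptor of perivascular macrophages, had the largest change of the list at 3.68 (SE 0.472, adjusted p = 4.17e-05). Of the pericyte and smooth muscle markers 2 rose (Abcc9 and Cspg4) and 1 fell (Tagln). Of the fibroblast markers 2 rose and 3 fell, with a mean of 6.043 to 6.824 in mutant pools and 6.135 to 6.891 in wild-type pools. Endothelial markers gave 3 higher and 4 lower of 10, glial markers 2 and 2 of 10, pigment epithelium markers 3 and 1 of 10, and rod markers 1 and 0 of the 8 measured. Of all genes 14.0% were higher and 9.91% lower in the mean of the mutants. The shares were 50% and 0% for macrophages and microglia, and 20% and 10% for pericytes and smooth muscle. The part of these cells in the collagen values was not tested.

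The multiplexins, collagens XV and XVIII, both rose. Col15a1 (RefSeq gene at chr4:47207655-47313167, GRCm38.p6), a chain that links basement membrane to the fibrils around it, had log2 signals of 11.38, 11.62 and 11.49 for Fz4 KO, 11.44, 11.35 and 11.15 for Lrp5 KO and 12.21, 11.64 and 12.23 for Norrin KO pools, against 3.80 to 5.36 (median 4.62) for wild type. Every mutant pool was at least 5 log2 units above every wild-type pool, and in wild type the gene lay under the array median. Its log2 fold change was 6.93 (SE 0.203, adjusted p = 8.67e-12), or 122-fold, the largest of the collagens in each mutant. Col18a1 (chr10:77052178-77166530), which gives the fragment endostatin, had 11.70, 11.48 and 11.40 for Fz4 KO, 10.998, 11.18 and 10.62 for Lrp5 KO and 11.87, 11.63 and 12.29 for Norrin KO pools, against 8.97 to 9.52 (median 9.32) for wild type. The groups did not overlap, and the log2 fold change was 2.17 (SE 0.127, adjusted p = 1.23e-08). The 2 genes changed unequally. Col15a1 minus Col18a1, taken within each array, averaged 0.150 ± 0.260 in the mutants and -4.61 ± 0.494 in wild type (SD, n = 9 and 6). That shift of 4.76 had a two-sided exact permutation p of 0.0002, the smallest that 5005 splits can give, and 0.0009 after adjustment over 9 pairs of chains, which were chosen after their values were seen.

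Of the type IV chains 5 of 6 rose, and the median log2 fold change of the 6 was 0.69. Col4a1 and Col4a2, whose products form the common network of all basement membranes, lie head to head on chromosome 8, where their RefSeq genes overlap by 85 bases. Col4a1 had 13.50, 13.64 and 13.51 for Fz4 KO, 13.63, 13.56 and 13.46 for Lrp5 KO and 13.64, 13.48 and 13.73 for Norrin KO pools, against 12.90 to 13.18 (median 13.05) for wild type. Col4a2 had 13.27, 13.35 and 13.26 for Fz4 KO, 13.34, 13.25 and 13.13 for Lrp5 KO and 13.43, 13.32 and 13.48 for Norrin KO pools, against 12.51 to 12.96 (median 12.81) for wild type. Neither gene overlapped between mutant and wild-type pools, although the changes were modest at 0.52 (SE 0.079, adjusted p = 0.000216) for Col4a1 and 0.51 (SE 0.0871, adjusted p = 0.000524) for Col4a2. The difference between the chains was 0.258 ± 0.054 in the mutants and 0.255 ± 0.082 in wild type (SD, n = 9 and 6), with an exact permutation p of 0.935. For Col4a2 in Lrp5 KO the adjusted p was 0.0227 by limma, and up to 0.105 without Lrp5 KO 1 or 2. It was 0.0585 in a block that matched Lrp5 KO 1, 2 and 3 to wild type 4, 5 and 6.

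Col4a3 and Col4a4 encode chains that assemble with the Col4a5 product in kidney, lung and eye basement membranes, and lie head to head on chromosome 1 with an overlap of 114 bases. Col4a3 had 10.31, 10.60 and 10.25 for Fz4 KO, 10.15, 10.40 and 10.47 for Lrp5 KO and 10.47, 10.63 and 10.57 for Norrin KO pools, against 8.62 to 9.18 (median 9.14) for wild type. Col4a4 had 10.18, 10.39 and 9.83 for Fz4 KO, 9.41, 10.04 and 9.90 for Lrp5 KO and 9.61, 9.92 and 9.68 for Norrin KO pools, against 8.10 to 9.11 (median 8.46) for wild type. Both were higher in all 9 mutant pools, at 1.39 (SE 0.107, adjusted p = 2.57e-07) and 1.39 (SE 0.159, adjusted p = 1.46e-05). Their difference was 0.544 ± 0.279 in the mutants and 0.545 ± 0.290 in wild type (SD, n = 9 and 6, exact permutation p = 0.999). Col4a5 did not pass, at 0.15 (SE 0.143, adjusted p = 0.502). Col4a3 minus Col4a5 averaged 0.803 ± 0.404 in the mutants and -0.433 ± 0.338 in wild type (SD, n = 9 and 6), a shift of 1.24 with no overlap between the groups (exact permutation p = 0.0002, adjusted 0.0009). Col4a6, the neighbour of Col4a5 on the X chromosome, was at 0.86 (SE 0.261, adjusted p = 0.0257), with an adjusted p of up to 0.0686 when 1 of 4 arrays (Fz4 KO 3 or wild type 2, 4 or 6) was left out.

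Type VI collagen is a trimer of the Col6a1, Col6a2 and Col6a3 products, and all 3 genes rose. Col6a3 (chr1:90766860-90844001) had 8.67, 8.71 and 8.75 for Fz4 KO, 7.45, 8.11 and 7.55 for Lrp5 KO and 9.15, 8.98 and 9.56 for Norrin KO pools, against 3.43 to 6.13 (median 4.73) for wild type. Col6a2 had 9.75, 9.93 and 9.69 for Fz4 KO, 8.70, 9.01 and 8.74 for Lrp5 KO and 11.41, 10.66 and 10.93 for Norrin KO pools, against 5.73 to 8.06 (median 7.70) for wild type. Col6a1 had 10.33, 10.60 and 10.38 for Fz4 KO, 9.19, 8.76 and 8.66 for Lrp5 KO and 11.54, 10.99 and 11.19 for Norrin KO pools, against 5.69 to 8.36 (median 8.03) for wild type. All mutant pools were above all wild-type pools for each gene, and among the mutants Norrin KO pools were the highest and Lrp5 KO pools the lowest. The log2 fold changes were 3.64 (SE 0.327, adjusted p = 1.22e-06) for Col6a3, 2.49 (SE 0.294, adjusted p = 1.85e-05) for Col6a2 and 2.47 (SE 0.333, adjusted p = 6.75e-05) for Col6a1. Col6a1 in Lrp5 KO did not pass, at 1.16 (SE 0.447, adjusted p = 0.115). Wild type 4 read 5.69 for this gene and the other wild-type pools 7.87 to 8.36. Without wild type 4 the Lrp5 KO value was 0.75 with an adjusted p of 0.00928. Col6a2 in Lrp5 KO had an adjusted p of 0.0261, and up to 0.0864 when any Lrp5 KO pool was left out.

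Col6a3 changed more than Col6a1, while Col6a1 and Col6a2 differed by less than their spread. Col6a1 minus Col6a2 was 0.313 ± 0.332 in the mutants and 0.337 ± 0.426 in wild type (SD, n = 9 and 6, exact permutation p = 0.902). Col6a3 minus Col6a1 was -1.63 ± 0.502 in the mutants and -2.81 ± 0.563 in wild type, a shift of 1.17 (exact permutation p = 0.000599, adjusted 0.0018). Col6a4 and Col6a5, which encode alternatives to the Col6a3 chain, were dim and did not pass, at 0.09 (adjusted p = 0.689) and 0.03 (adjusted p = 0.867). Col6a4 passed in Norrin KO, at 0.59 (SE 0.186, adjusted p = 0.0308), and missed the threshold when any 1 of 5 arrays was left out, with an adjusted p of up to 0.178.

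Col6a1, Col6a2 and Col18a1 lie near each other on chromosome 10, with 85.2 kb between Col6a1 and Col6a2 and 326.1 kb between Col6a1 and Col18a1. They rose together, and are shown here by the 250 bases before their starts, from RefSeq on GRCm38.p6, all read on the minus strand. Windows were printed where they lay outside the RefSeq span of their own gene. The Col6a2 window is chr10:76623631-76623880, that of Col6a1 is chr10:76726045-76726294 and that of Col18a1, at the more distal of its 2 starts, is chr10:77166531-77166780. Capitals mark matches to the TCF/LEF core CTTTGAA or CTTTGAT, to TATAAA or to the GC box GGGCGG, on either strand.
Col6a2: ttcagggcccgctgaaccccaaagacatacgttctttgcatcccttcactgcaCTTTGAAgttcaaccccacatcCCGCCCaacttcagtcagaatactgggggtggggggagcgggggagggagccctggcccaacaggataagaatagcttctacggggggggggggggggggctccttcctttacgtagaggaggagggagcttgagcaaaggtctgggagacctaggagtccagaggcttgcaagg
Col6a1: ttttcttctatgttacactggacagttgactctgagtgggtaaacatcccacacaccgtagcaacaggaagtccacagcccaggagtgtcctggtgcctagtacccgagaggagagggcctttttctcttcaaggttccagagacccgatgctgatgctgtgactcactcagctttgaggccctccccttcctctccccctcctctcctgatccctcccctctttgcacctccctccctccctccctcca
Col18a1: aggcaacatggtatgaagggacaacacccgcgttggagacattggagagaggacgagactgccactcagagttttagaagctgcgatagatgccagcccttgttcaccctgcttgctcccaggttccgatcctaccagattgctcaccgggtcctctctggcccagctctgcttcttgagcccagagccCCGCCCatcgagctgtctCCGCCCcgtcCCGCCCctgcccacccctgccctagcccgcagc
In these windows Col6a2 held CTTTGAA at -197 and CCGCCC, the reverse complement of the GC box, at -175, Col18a1 held CCGCCC at -61, -43 and -33, and Col6a1 held no match. Upstream windows were at hand for 33 of the 42 genes, 36 windows in all. CTTTGAA on either strand was in 4 of them (11.1%, for Col6a2, Col9a1, Col13a1 and Col15a1), against 4.46% of 32851 windows of the same length, and CTTTGAT in 1 (2.78%, Col9a2), against 3.21%. The GC box was in 21 (58.3%), against 32.7%, and TATAAA in 5 (13.9%), against 12.4%. A match is of letters only.

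Of the transmembrane collagens, which sit in the plasma membrane and can be shed, 3 of 4 rose. Col13a1 (chr10:61838234-61979206), found at cell and matrix contacts, had 9.88, 9.21 and 9.87 for Fz4 KO, 9.19, 9.23 and 9.21 for Lrp5 KO and 11.06, 10.18 and 10.03 for Norrin KO pools, against 4.65 to 5.66 (median 5.11) for wild type. The lowest mutant pool was over 3 log2 units above the highest wild-type pool, and the log2 fold change was 4.61 (SE 0.199, adjusted p = 4.76e-10), or 24.4-fold. Col25a1, known from amyloid plaques of human brain, had 7.75, 7.88 and 8.33 for Fz4 KO, 8.21, 7.86 and 7.49 for Lrp5 KO and 8.09, 8.17 and 9.08 for Norrin KO pools, against 3.90 to 7.48 (median 6.80) for wild type. The wild-type pools were spread widely, which leaves a large standard error at 1.83 (SE 0.448, adjusted p = 0.00769). In single mutants it passed in Norrin KO, at 2.18 (adjusted p = 0.0158), and not without Norrin KO 3 (0.0763). The second probe set of the gene was at -0.19 and did not pass, and with the mean of both sets the value was 0.82 (adjusted p = 0.0225). Col23a1 was at 0.75 (SE 0.236, adjusted p = 0.0317) and lost its call when any 1 of 9 arrays was left out, with an adjusted p of up to 0.0837. Col17a1, the hemidesmosomal chain of skin, was dim and did not pass.

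**Figure D2:**
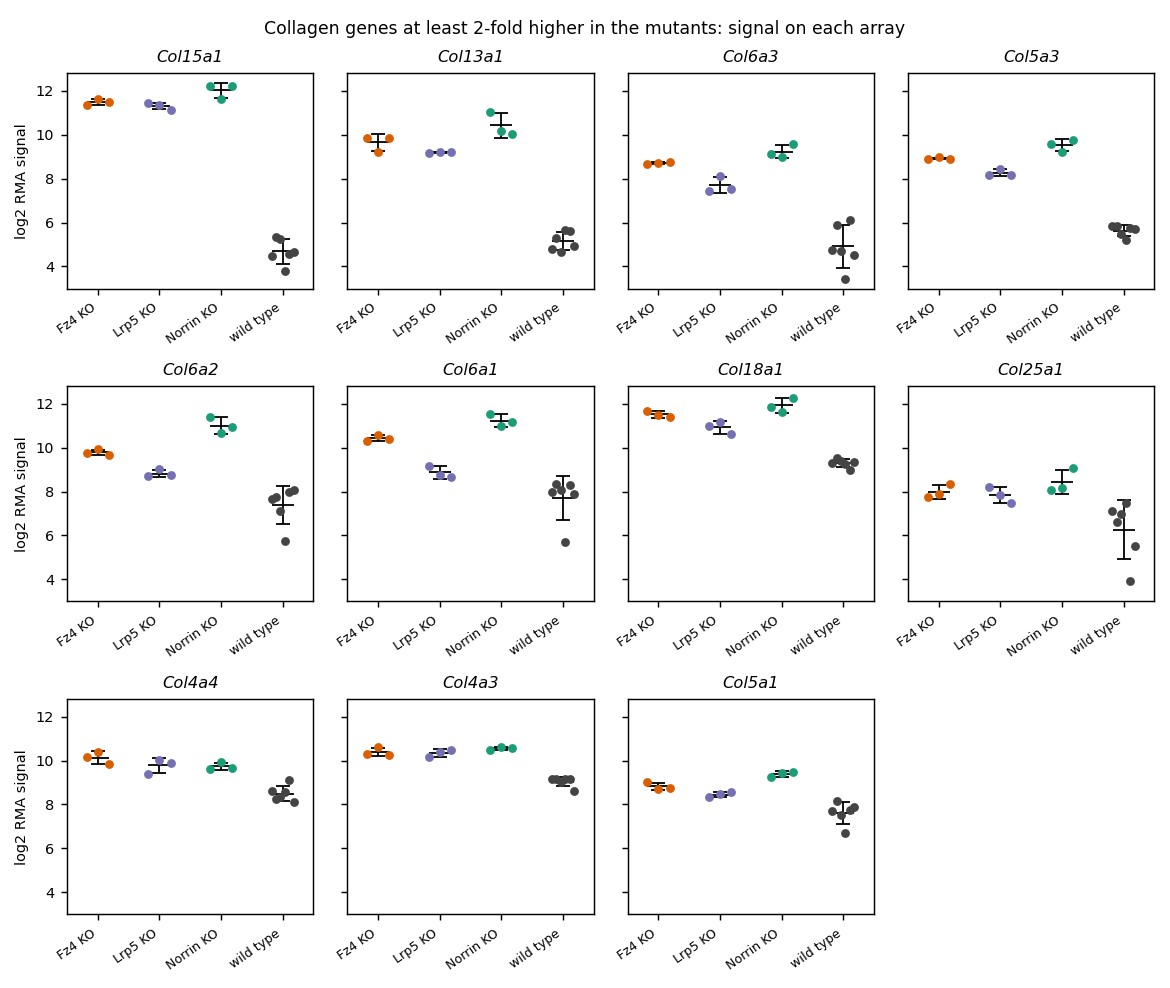
Log2 signal on the y axis for each of the 15 arrays, in 1 panel for each of the 11 collagens that passed with a log2 fold change of at least 1. Points are pools of Fz4 KO, Lrp5 KO, Norrin KO (3 each) and wild type (6), and bars are the mean and SD. In every panel all mutant points lie above the wild-type points, by the least for Col25a1, where the nearest points read 7.487 and 7.484.

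The fibrillar collagens divided. Of 11 measured, 4 rose and 1 fell, with a median log2 fold change of 0.132. All 3 chains of type V, which nucleates fibrils of type I, rose. Col5a3 (chr9:20770050-20815117) had 8.92, 8.97 and 8.90 for Fz4 KO, 8.17, 8.45 and 8.18 for Lrp5 KO and 9.59, 9.22 and 9.75 for Norrin KO pools, against 5.18 to 5.85 (median 5.72) for wild type. Col5a1 had 9.01, 8.69 and 8.76 for Fz4 KO, 8.33, 8.46 and 8.57 for Lrp5 KO and 9.26, 9.42 and 9.49 for Norrin KO pools, against 6.70 to 8.14 (median 7.73) for wild type. Col5a2 had 10.97, 10.65 and 10.95 for Fz4 KO, 10.78, 11.40 and 10.71 for Lrp5 KO and 11.84, 11.29 and 11.72 for Norrin KO pools, against 9.86 to 10.93 (median 10.49) for wild type. Col5a3 and Col5a1 separated all mutant from all wild-type pools, whereas Col5a2 overlapped in Fz4 KO and Lrp5 KO. The log2 fold changes were 3.28 (SE 0.12, adjusted p = 9.39e-11) for Col5a3, 1.27 (SE 0.174, adjusted p = 7.6e-05) for Col5a1 and 0.66 (SE 0.166, adjusted p = 0.0092) for Col5a2. In single mutants Col5a2 passed in Norrin KO. Its second probe set was at 0.25 (adjusted p = 0.547 over all probe sets), and with the mean of both sets Col5a2 was at 0.45 and lost its call (adjusted p = 0.0772). A second, dim probe set of Col5a3 was at -0.25 and did not pass, and with the mean of both sets the value was 1.52. Col5a1 in Lrp5 KO had an adjusted p of 0.0287, and up to 0.113 when any Lrp5 KO pool was left out. The shift of Col5a1 against Col5a2 was 0.615 (exact permutation p = 0.0036, adjusted 0.00648).

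Type I collagen, the main fibril former of connective tissue, is built of Col1a1 and Col1a2 chains, and the 2 genes parted. Col1a1 (chr11:94936224-94953042) had 9.64, 9.09 and 10.002 for Fz4 KO, 8.76, 8.89 and 8.87 for Lrp5 KO and 10.33, 11.003 and 10.80 for Norrin KO pools, against 10.16 to 11.17 (median 10.74) for wild type. Lrp5 KO pools were the lowest, Fz4 KO pools lay below the lowest wild-type pool, and Norrin KO pools lay within the wild-type range. The log2 fold change was -0.98 (SE 0.195, adjusted p = 0.00182) for the mean of the mutants. In Fz4 KO it was -1.11 (SE 0.262, adjusted p = 0.00842), for Lrp5 KO pools -1.85 (SE 0.262, adjusted p = 0.000238) and for Norrin KO pools 0.02 (SE 0.262, adjusted p = 0.964). The Fz4 KO call was lost without Fz4 KO 2 (adjusted p = 0.0619). It was also lost, at -1.02 (adjusted p = 0.0789), in a block that matched each Fz4 KO array to the wild type of its number. Pdgfra, the receptor that marks fibroblasts and retinal astrocytes, was at -0.62 (adjusted p = 0.345) in Fz4 KO, -1.85 (adjusted p = 0.00687) in Lrp5 KO and 1.05 (adjusted p = 0.0709) in Norrin KO. Pdgfra is 1 of the 10 fibroblast markers, and others moved differently. Across the same mutants in that order, Postn was at 1.82, 0.82 and 2.37, and Fbln2 at 2.04, 0.64 and 1.45. Fz4 KO pools had 2 markers of the list higher and 1 lower. Lrp5 KO pools had 0 higher and 2 lower, and Norrin KO pools 2 higher and 1 lower. Of all genes 10.7%, 5.63% and 16.7% were higher in Fz4 KO, Lrp5 KO and Norrin KO, and 6.08%, 7.27% and 9.13% lower. A list of 10 genes is too short to rank the mutants by these counts. The part of fibroblasts or astrocytes in the Col1a1 values was not tested. The other probe set of Col1a1 was also lower, at -0.84 with an adjusted p of 0.0383 over all probe sets.

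Col1a2 (chr6:4505618-4541543) had 10.89, 10.77 and 10.81 for Fz4 KO, 10.40, 10.63 and 10.15 for Lrp5 KO and 11.19, 11.18 and 11.26 for Norrin KO pools, against 9.91 to 10.46 (median 10.36) for wild type. Norrin KO and Fz4 KO pools were above every wild-type pool, and Lrp5 KO pools overlapped the wild-type range. The log2 fold changes were 0.50 (SE 0.104, adjusted p = 0.00247) for the mean of the mutants and 0.08 (SE 0.139, adjusted p = 0.805) in Lrp5 KO. The other Col1a2 probe sets were at 0.31 and -0.28 without passing, and with the mean of all its probe sets the call was lost (0.18, adjusted p = 0.398). In Fz4 KO the call was also lost without Fz4 KO 1 or 3, with an adjusted p of up to 0.0838. Col3a1, the chain of type III fibrils in vessel walls, had 11.36, 11.35 and 11.28 for Fz4 KO, 11.17, 11.48 and 10.98 for Lrp5 KO and 11.77, 11.29 and 12.02 for Norrin KO pools, against 11.05 to 11.98 (median 11.58) for wild type. The groups overlapped and it did not pass, at -0.19 (SE 0.15, adjusted p = 0.396).

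Within each array, Col1a1 minus Col1a2 was -1.10 ± 0.557 in the mutants and 0.378 ± 0.390 in wild type (SD, n = 9 and 6), and 8 of 9 mutant pools lay below all wild-type pools. The shift of -1.48 had an exact permutation p of 0.000799, adjusted 0.0018. By mutant the shift was -1.63 in Fz4 KO (exact permutation p = 0.0119), -1.93 in Lrp5 KO (0.0119) and -0.88 in Norrin KO (0.0357). Each test had 84 splits, and 0.0119 is the smallest p these can give. The p-values by mutant are unadjusted, share the 6 wild-type pools and concern a pair chosen after its values were seen. Of the fibroblast markers, Postn, a matrix protein of activated fibroblasts, and Fbln2 rose by 1.67 and 1.38, while Dcn, Fap and Pi16 changed by -1.12, -0.97 and -0.82, all with limma adjusted p-values of at most 0.0369. Lum and Dpt, which define many fibroblasts, averaged 3.69 and 3.12 in mutant pools and 3.64 and 3.40 in wild-type pools, below the lower quartile of every array. Their part in these values was not tested. The other fibrillar chains, Col2a1, Col11a1, Col11a2, Col24a1 and Col27a1, did not pass, at -0.16 to 0.65.

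**Figure D3:**
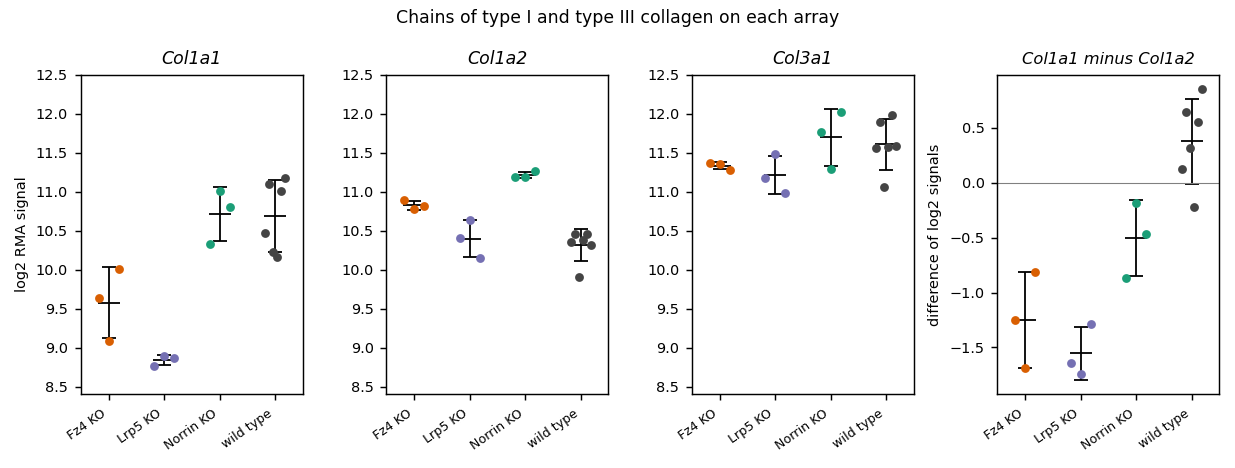
Log2 signals of Col1a1, Col1a2 and Col3a1 on each array in the panels to the left, and the difference between the Col1a1 and Col1a2 signals in the panel to the right. Points are pools of Fz4 KO, Lrp5 KO, Norrin KO (3 each) and wild type (6), and bars are the mean and SD. The difference is lower in 8 of the 9 mutant pools than in any wild-type pool.

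Few of the remaining collagens changed. Of the 9 chains that decorate fibrils (FACITs), 1 rose, Col16a1 at 0.53 (SE 0.155, adjusted p = 0.022), and without wild type 2 its adjusted p was 0.0504. The other 8, Col9a1, Col9a2, Col9a3, Col12a1, Col14a1, Col19a1, Col20a1 and Col22a1, did not pass in the mean of the mutants, at -0.94 to 0.44. Col19a1 passed as lower in Norrin KO, at -1.48 (SE 0.509, adjusted p = 0.0453), and missed the threshold when any 1 of 10 arrays was left out, with an adjusted p of up to 0.218. Of the short-chain network collagens Col10a1, a chain of hypertrophic cartilage, passed at 0.44 (SE 0.125, adjusted p = 0.0197) with a signal below the array median in every group, and not without wild type 6 (0.0523). Col8a1, made by endothelium and smooth muscle, did not pass on its brightest probe set at 0.41 (SE 0.169, adjusted p = 0.0947), but did on its dimmer sets, at 0.58 and 0.66, and Col8a2 did not pass at -0.53 (SE 0.269, adjusted p = 0.18). Col8a1 minus Col8a2 shifted by 0.945 (exact permutation p = 0.0186, adjusted 0.0279). Col7a1, the chain of anchoring fibrils in skin, and Col26a1 did not pass, at 0.06 and -0.02. The brightest set of Col12a1 was at -0.63 (SE 0.325, adjusted p = 0.191) and did not pass, and a dimmer set was higher at 1.11 (adjusted p = 0.00655 over all probe sets). A dimmer set of Col14a1 was lower in Lrp5 KO at -1.57 (adjusted p = 0.0352 over all probe sets). Of the 27 genes with several probe sets, 7 had all of them past the threshold and 8 only some, and no gene had calls in both directions. Of the 22 genes that did not pass, 13 were below the lowest array median in wild type and in the mean of the mutants.

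Among the 3 mutants, Norrin KO had the highest mean for 26 of the 42 collagens, and Lrp5 KO the lowest for 21 and the highest for 12. Of the 19 that rose, Norrin KO was the highest for 17 and Lrp5 KO the lowest for 15, and 5 of the 19 had passed in Norrin KO and in neither other mutant. The 19 were called by the mean of the 3 mutants, so their order is not independent of that choice. This order was not counted over all genes, of which 16.7% were higher than wild type in Norrin KO and 5.63% in Lrp5 KO. Norrin KO against Lrp5 KO gave 9 collagens of 42 (21.4%), all higher in Norrin KO, where 11.9% of all genes passed in either direction. The differences were 2.37 (SE 0.516, adjusted p = 0.0123) for Col6a1, 2.18 (SE 0.455, adjusted p = 0.00998) for Col6a2, 1.87 (SE 0.302, adjusted p = 0.00318) for Col1a1 and 1.26 (SE 0.186, adjusted p = 0.0021) for Col5a3. For Col13a1, Col18a1, Col5a1 and Col1a2 they were 1.22, 1.00, 0.94 and 0.82, with adjusted p-values of 0.0234, 0.00785, 0.0382 and 0.00781 by limma. Col10a1 had 3.66, 3.73 and 4.06 for Fz4 KO, 3.55, 3.86 and 3.47 for Lrp5 KO and 4.67, 3.97 and 4.22 for Norrin KO pools, against 3.29 to 3.77 (median 3.47) for wild type, and differed by 0.67 (SE 0.194, adjusted p = 0.04). All Norrin KO pools lay above all Lrp5 KO pools for 13 of the 42 collagens (31%), which held for 20.0% of all genes, and below them for 3 (7.14%), against 10.8% of all genes. The calls of Col10a1, Col13a1 and Col5a1 were lost when any 1 of 9, of 3 and of 6 arrays was left out, with adjusted p-values of up to 0.14, 0.0912 and 0.131.

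Several measures moved with this difference. The gap between 3′ and 5′ actin control signals, a sign of RNA integrity, was 1.05 to 2.92 in Norrin KO pools and 0.558 to 0.957 in Lrp5 KO pools. On every array outside Norrin KO the gap was at most 1.04, so it cannot be separated from the Norrin KO group. A call lost with this covariate is therefore hard to read. With that gap as a covariate 2 of the 9 genes passed, Col1a1 at 2.18 and Col5a3 at 1.15. The differences of Col6a1, Col6a2, Col5a1, Col18a1 and Col1a2 were then 2.08, 1.87, 1.10, 0.99 and 0.78, while those of Col13a1 and Col10a1 were 0.64 and 0.27, with limma adjusted p-values of 0.077 to 0.459 for these 7. Against wild type, 14 collagens were then higher in Norrin KO and none lower. Those that no longer passed as higher were Col25a1 at 2.41 (2.18 without the covariate), Col5a2 at 0.93 (1.13), Col10a1 at 0.44 (0.81), Col16a1 at 0.32 (0.70) and Col4a6 at 0.20 (1.07). Without Lrp5 KO 1, Lrp5 KO 3 and wild type 4, 1 gene passed, Col6a1 at 2.48, with a lone Lrp5 KO pool assumed to vary like the other groups. The other 8 differences were then 0.43 to 1.99. Of the 10 fibroblast markers 2 were higher in Norrin KO, Pdgfra by 2.91 (SE 0.466, adjusted p = 0.00318) and Postn by 1.54 (SE 0.399, adjusted p = 0.025), and the list averaged 6.544 to 6.824 in Norrin KO pools and 6.043 to 6.406 in Lrp5 KO pools. Of the 10 glial markers Gfap was higher at 2.73 (adjusted p = 0.00174), while Aqp4, Rlbp1 and Glul were lower at -2.39 (adjusted p = 0.0103), -2.15 (adjusted p = 0.00747) and -0.44 (adjusted p = 0.036). The glial list averaged 10.34 to 10.74 in Norrin KO pools and 10.79 to 11.12 in Lrp5 KO pools. The part of these measures in the difference was not tested further. Fz4 KO against Lrp5 KO gave no collagen by limma, where 0.225% of all genes passed, and 8 at an unadjusted p under 0.05. Fz4 KO against Norrin KO also gave none, where 2.32% passed, and 8 at an unadjusted p under 0.05. A p that misses the threshold does not show that these mutants are alike.

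**Figure D4:**
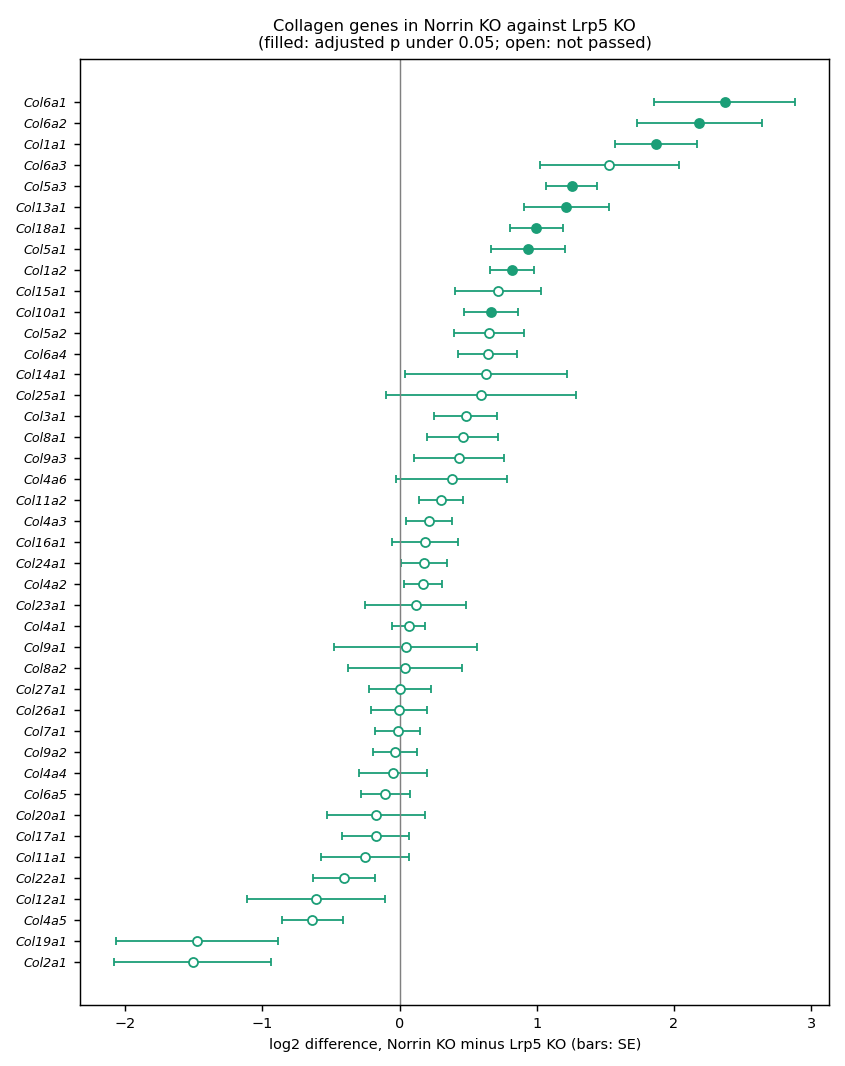
Log2 difference of each of the 42 collagen genes, Norrin KO minus Lrp5 KO, on the x axis, with genes on the y axis in order of the difference. Bars are standard errors from limma, filled points passed at an adjusted p of 0.05 and open points did not. The 9 filled points all lie to the right of 0, from 0.67 for Col10a1 to 2.37 for Col6a1.

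Genes that fold, modify, process and cross-link collagen were also counted. Of 35 such genes 31 were measured, and 15 rose (48.4%) and 1 fell (3.23%) in the mean of the mutants, where 14.0% of all genes were higher and 9.91% lower. The median log2 fold change was 0.449 over the list and -0.0111 over all genes. The mean of the list was 8.437 to 8.988 in mutant pools and 8.176 to 8.366 in wild-type pools, so the groups did not overlap. Pxdn, the peroxidase that forms sulfilimine cross-links in type IV collagen, had the largest change at 2.42 (SE 0.207, adjusted p = 7.49e-07). P3h3, a prolyl 3-hydroxylase family member, was at 1.74 (SE 0.152, adjusted p = 9.53e-07), Colgalt2, a collagen galactosyltransferase, at 1.18 (SE 0.12, adjusted p = 4.31e-06), Tll1, a procollagen C-proteinase, at 1.15 (SE 0.151, adjusted p = 5.17e-05) and Loxl3, a lysyl oxidase, at 1.13 (SE 0.176, adjusted p = 0.00025). The gene that fell was Crtap, a partner of prolyl 3-hydroxylase, at -0.52 (SE 0.115, adjusted p = 0.00366). Serpinh1, the collagen chaperone of the endoplasmic reticulum, rose by 0.72 (limma adjusted p = 0.000266). By mutant the counts were 14 higher in Fz4 KO (45.2%, against 10.7% of all genes), 7 higher (22.6%, against 5.63%) and 1 lower in Lrp5 KO, and 15 higher in Norrin KO (48.4%, against 16.7%).

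Of 12 collagen receptors 11 were measured and 2 rose (18.2%), close to the 14.0% of all genes, with a median log2 fold change of 0.199. They were Itga2, an integrin chain that binds collagen, at 0.92 (SE 0.224, adjusted p = 0.00721), and Ddr2, a receptor tyrosine kinase for fibrillar collagen, at 0.88 (SE 0.116, adjusted p = 5.41e-05). The other collagen-binding integrin chains Itga1 and Itga10 did not pass, at -0.28 (adjusted p = 0.21) and 0.49 (adjusted p = 0.289).

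**Figure D5:**
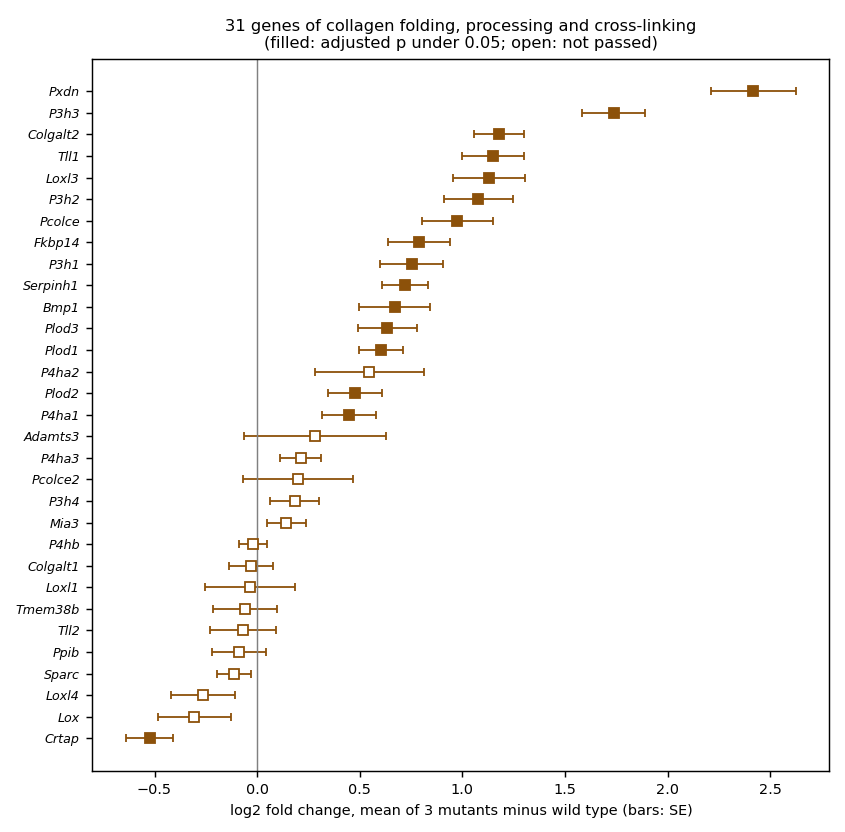
Log2 fold change of each of the 31 measured genes of collagen folding, processing and cross-linking, mean of the 3 mutants minus wild type, on the x axis, with genes on the y axis in order of the change. Bars are standard errors from limma, filled squares passed at an adjusted p of 0.05 and open squares did not. Pxdn lies farthest to the right at 2.42, and Crtap is the filled square to the left of 0.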

How the data were processed

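The deposited values were log2 signals of 45101 probe sets on 15 arrays. Per the submitters' processing notes the authors used RMA, which corrects background, quantile normalizes arrays and summarizes probes, and can compress changes of dim probe sets. Its version, and whether all arrays were normalized together, are not stated in these sources. RNA was taken with Trizol and RNeasy and labelled with biotin, per the labels' protocols.

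Probe sets were named from the platform annotation (34958 with 1 symbol, 932 with several, 9211 with none). The brightest probe set, by mean over all arrays, stood for each of 18194 genes, with no filter on dim genes. A model with 1 mean for each of the 4 groups was fitted to all arrays by limma 3.58.1 (R 4.3.3) with default eBayes, p-values were adjusted by Benjamini-Hochberg over all genes, and 0.05 was the threshold. Pools are the replicates, so p-values measure the spread between pools. The number of arrays limits precision. The fit was tested on simulated data.

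Genes given by array were those with a log2 change of at least 1 past the threshold, the 6 highest in wild type, and any that differed between mutants. Of the maturation and receptor lists the 5 largest past the threshold were named, and other genes after their values were seen. Members, classes, gene lists, cell type markers and tests were chosen with earlier results of these data known. Pairs of chains were compared by exact permutation of pools. Col6a6, Col21a1 and Col28a1 were not analysed here. Replicate numbers are not shown to pair the arrays: 5 of 18 same-numbered pairs had deviations correlated over 0.1 (range -0.238 to 0.381). Such correlations cannot show that the pools were unpaired. Of all pairs, Lrp5 KO 1 and wild type 4 deviated together most (0.661). A block added after seeing the data matched each Fz4 KO array to the wild type of its number, and Lrp5 KO 1, 2 and 3 to wild type 4, 5 and 6. The matched pairs correlated at 0.258, 0.06 and 0.381 for Fz4 KO 1, 2 and 3 and at 0.661, 0.335 and 0.257 for Lrp5 KO 1, 2 and 3. Fz4 KO 2 correlated better with wild type 4 (0.251) than with its match. Alternatives were other probe set rules, normalizations, filters, variance models, array weights, covariates, blocks and left-out arrays.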

Additional observations from a re-analysis of the deposited data

Results flagged for a closer look

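Among the 6 wild-type pools, 1 pool stood away from the other 5 for 6 of the 42 collagens by Dixon's test, where chance flags about 1 group in 20 (2.1 of 42). Wild type 4 read 5.69 for Col6a1, under the 7.87 to 8.36 of the others, and 6.42 for Col16a1, above 6.04 to 6.18. Wild type 3 read 9.91 for Col1a2, under 10.32 to 10.46, and 5.93 for Col20a1, under 6.76 to 7.22. Wild type 5 read 10.10 for Col4a5, above 9.29 to 9.41, and wild type 6 read 8.62 for Col4a3, under 9.002 to 9.179. Of the 19 collagens that rose, wild type 4 was the lowest wild-type pool for 7 and the highest for 6.

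Norrin KO and Lrp5 KO differed, by limma on the difference itself, for 9 collagens, all higher in Norrin KO. The log2 differences were 2.37 for Col6a1, 2.18 for Col6a2, 1.87 for Col1a1, 1.26 for Col5a3, 1.22 for Col13a1, 1.00 for Col18a1, 0.94 for Col5a1, 0.82 for Col1a2 and 0.67 for Col10a1. The gap between 3′ and 5′ actin signals was also wider in every Norrin KO pool than in any other pool, and so cannot be separated from that group. With the gap as a covariate 2 of the 9 passed. The differences were then 0.27 for Col10a1, 0.64 for Col13a1 and 0.78 to 2.18 for the other 7.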

How the results depend on the processing

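Counts of higher collagens stayed within 1.5 times under every alternative except Lrp5 KO without the 3 arrays that stood apart (7 against 11), and no called fold change of a collagen changed sign. Counts of lower genes and counts between mutants were small and moved more easily, and the cause was not tested. With array weights there were 3 lower in the mean of the mutants and 2 lower in each of Fz4 KO, Lrp5 KO and Norrin KO (1 each as reported), 3 for Fz4 KO against Lrp5 KO and 3 for Fz4 KO against Norrin KO (0 each as reported), and 4 receptors (2 as reported). Without the 3 arrays, 3 were lower in the mean of the mutants, 3 passed for Fz4 KO against Norrin KO and 1 for Norrin KO against Lrp5 KO (9 as reported). The actin gap as a covariate gave 2 for Norrin KO against Lrp5 KO and 0 lower in Norrin KO, and fitting the compared groups alone gave 5 for Norrin KO against Lrp5 KO. The mean of all probe sets gave 0 lower in Norrin KO and 4 receptors, and each probe set on its own gave 2 lower in Lrp5 KO and 1 for Fz4 KO against Norrin KO. Quantile normalization again gave 1 for Fz4 KO against Norrin KO and 4 receptors, and centring on the median gave 1 for that comparison. Genes above the median gave 1 for it and 0 lower in Norrin KO, with 21 collagens tested. The robust variance trend gave 2 for it and 4 receptors.

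With the replicate number as a block, in which wild type 4 to 6 stand alone, 15 collagens were higher in the mean of the mutants, 11 in Fz4 KO, 8 in Lrp5 KO and 17 in Norrin KO. The block gave 0 lower in Fz4 KO and 0 in Norrin KO, 1 for Fz4 KO against Lrp5 KO, 0 for Fz4 KO against Norrin KO and 11 for Norrin KO against Lrp5 KO. The numbers are not shown to pair the pools: 5 of 12 numbered arrays correlated best with their own number. The block of matched arrays, chosen after seeing the data, gave 15 higher and 1 lower in Fz4 KO and 13 higher and 1 lower in Lrp5 KO. Its match of Fz4 KO 2 to wild type 2 had a correlation of only 0.06. It lost Col1a1 in Fz4 KO (adjusted p = 0.0789) and Col4a2 in Lrp5 KO (0.0585), and gained Col4a6, Col8a1 and Col19a1 (-1.20) in Fz4 KO and Col2a1 (1.65, 0.00602), Col4a6 and Col25a1 in Lrp5 KO.

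Leaving out each array in turn gave 16 to 20 higher and 1 to 3 lower in the mean of the mutants, 12 to 15 and 0 to 2 in Fz4 KO, 8 to 13 and 1 in Lrp5 KO, and 16 to 20 and 0 to 1 in Norrin KO. Between mutants it gave 0 to 1 for Fz4 KO against Lrp5 KO, 0 to 3 for Fz4 KO against Norrin KO and 6 to 10 for Norrin KO against Lrp5 KO. Maturation genes numbered 15 to 16 and receptors 2 to 3. Groups compared alone gave no value for the mean of the mutants, and each probe set on its own none for the lists or for a single gene. Having 3 arrays per mutant and the dim signal of 18 of the 42 collagens in wild type, below the lowest array median, limits what can be seen.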
